A study of Mus musculus with 10 samples.

Results

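Carbonic anhydrases convert carbon dioxide and water into bicarbonate and a proton, and back again. The 7 genes described here, Car2, Car3, Car4, Car5b, Car9, Car12 and Car13, encode family members that sit in different places. Car2, Car3 and Car13 are cytosolic, Car5b is mitochondrial, Car4 is held on the outer face of the plasma membrane by a GPI anchor, and Car9 and Car12 span the membrane with the catalytic domain outside the cell. The genes were found by their symbols among the 18384 genes listed in the mRNA-seq files, and all 7 had a row in at least 1 library. They were selected with the IL-4 and control values of these same libraries known, so their levels and changes are a description and carry no test.

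The cells were adipocyte precursors (APs) from the subcutaneous white adipose tissue of C57BL/6J mice, isolated with magnetic beads by removal of CD45+ (blood lineage) and CD31+ (endothelial) cells and then retention of SCA-1+ cells. One group was cultured in growth medium alone (control, n = 3) and the other in the same medium with interleukin 4 (IL-4, n = 3), a type 2 cytokine, added a day after plating. RNA was taken on day 4. The study described the libraries as biological replicates, and the number of animals behind each culture, their age and sex, the IL-4 dose and any pooling were not given in the sources used here.

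In fat, Car3 is a very abundant protein of mature adipocytes. Car4 is known from the capillary endothelium of lung and muscle and from kidney epithelium, Car2 works beside the proton pump of osteoclasts and is a major enzyme of red cells, and Car9 and Car12 are known targets of the hypoxia response. Enzymes that face outward work together with transporters that carry bicarbonate, protons and lactate across the membrane.

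The libraries held 28526782 to 28674604 expected counts (reads assigned to genes by a model, which need not be whole numbers) in the control group and 28914003 to 29057787 in the IL-4 group. A level below is either an FPKM (fragments per kilobase of transcript, scaled to the size of the library), which allows genes to be compared with each other, or a normalized count (expected counts scaled by the TMM method), which allows libraries to be compared. A gene was called when its log2 fold change was beyond 1 in either direction and edgeR's quasi-likelihood test placed its adjusted p below 0.05, and 14009 genes had enough counts to be tested. Of these, 11.0% were called, 5.77% higher and 5.26% lower with IL-4. Scaling by library totals instead of TMM moved the median log2 fold change of all genes from 0.00 to -0.17 and the calls from 809 higher and 737 lower to 657 higher and 961 lower.

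Control replicate 3 stood apart from the other controls at a set of genes with large IL-4 responses and few control reads. At other genes with large responses it was not always the highest control, such as Vwf (normalized counts of 210, 204 and 158 in control replicates 1, 2 and 3). The set of 15 genes, chosen after the values were seen, had at least 1000 normalized counts on average with IL-4 and at most 1% of that level in control replicates 1 and 2. Control replicate 3, on which this choice set no limit, was above both other controls at all 15. The same 15 genes were found when the limit was set on the mean of all 3 controls. Its level at these genes had a median of 0.196% of the IL-4 mean, against 0.0842% in control replicate 1 and 0.0631% in control replicate 2. Car4 is one of the 15, with 0.120% of the IL-4 mean in control replicate 3, 0.0112% in control replicate 2 and no read in control replicate 1. Chil3, Retnla and Chil4, secreted proteins of alternatively activated macrophages, were at 0.103%, 0.135% and 0.119% in control replicate 3. Genes outside the macrophage lists used below were also in the set, such as Msx3 (0.108%) and the collagen gene Col6a5 (0.196%). Over all 15 genes the level in control replicate 3 ranged from 0.0780% to 0.937%. The cause was not tested, and the values of Car4 are given below with and without this library.

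**Figure D1:**
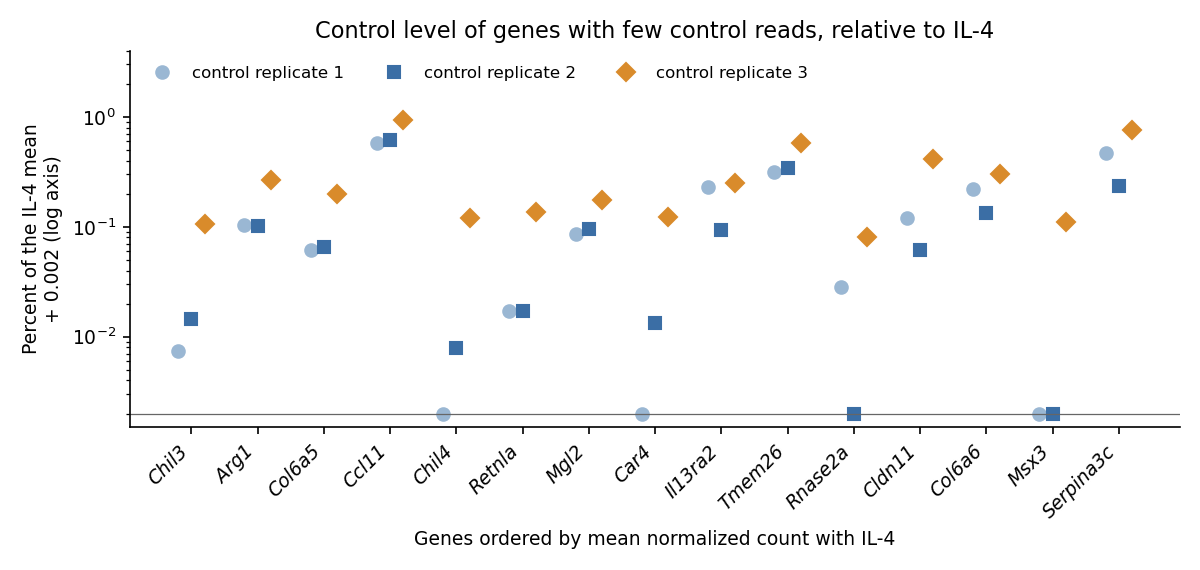
Level of each of the 15 genes in the 3 control libraries as a percent of the mean normalized count with IL-4, plotted with 0.002 added on a log axis so that libraries without a read lie on the grey line. Control replicate 3 (diamonds) lies above the other controls at every gene, at 0.120% for Car4.

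Car4 was the member with a large difference. Its expected counts were 0, 1 and 11 in control replicates 1, 2 and 3 and 7488, 7593 and 9293 in IL-4 replicates 4, 5 and 6. In FPKM this was 0, 0.03 and 0.31 in the controls against 207.68, 209.91 and 255.6 with IL-4. The groups were far apart, and the highest control library was the one that stood apart above. Ordered by FPKM, Car4 was gene 265, 265 and 260 of the 16552 to 16588 genes above 0 in the IL-4 libraries, and gene 13178 of 16618 in control replicate 3.

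The mean normalized count of Car4 was 3.76 ± 5.70 (SD, n = 3) in the control group and 8571 ± 888 (SD, n = 3) with IL-4, a ratio of 2280. The fitted log2 fold change was 11.09 with a standard error of 0.35. Without control replicate 3 it was 13.79, which depends on the prior count of the fit and is no bound. Control replicates 1 and 2 were both below a floor of 3 counts per library, and against that floor in these controls the IL-4 level of Car4 was at least 2991-fold higher. That value leaves out control replicate 3, the highest control at 10.3 normalized counts. It is no lower bound for all 3 controls, over which the ratio was 2280. Leaving out any library other than control replicate 3 gave a log2 fold change of 10.52 to 11.15, the lowest without control replicate 1 and 10.65 without control replicate 2.

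The region before the Car4 start site is shown because this gene carries the difference. Car4 lies on chromosome 11 from 84957754 to 84966054 (GRCm38, the build of the mm10 alignment), on the plus strand. The printed run is the 250 bases upstream of the RefSeq transcription start, chr11:84957504-84957753, 5′ to 3′. It was searched, together with the first 50 transcribed bases, for the palindrome bound by STAT6, the transcription factor that IL-4 activates (TTCNNNNGAA), and for the core of the hypoxia response element (ACGTG), on both strands. Matches would be in capitals, and the upstream run holds none.
Car4: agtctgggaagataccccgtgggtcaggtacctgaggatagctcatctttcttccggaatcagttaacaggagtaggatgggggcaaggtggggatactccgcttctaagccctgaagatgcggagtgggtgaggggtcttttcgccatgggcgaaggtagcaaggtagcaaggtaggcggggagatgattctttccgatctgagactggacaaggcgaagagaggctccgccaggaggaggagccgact

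The STAT6 letters occurred in 6.95% of the 32851 promoter windows in the RefSeq table and in none of the windows of Car4, Car5b, Car9 and Car12, the 4 members that the table holds. The ACGTG core occurred in 19.6% of all windows. Among the 4 members it was found just after the start of Car4, at transcribed bases 3 to 7, and just before the start of Car9, at bases -18 to -14. The Car9 match is in capitals in the 60 bases upstream of its start (chr4:43506966-43507025, plus strand, GRCm38), where it reads as the reverse complement, and is shown because Car9 is a known target of hypoxia-inducible factors.
Car9: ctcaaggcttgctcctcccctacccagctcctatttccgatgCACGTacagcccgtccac

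Neither motif was found in the Car5b or Car12 window. Car2, Car3 and Car13 had no promoter entry. These 3 genes lie with Car1 within 259 kb of chromosome 3 (14641727 to 14900770). A match is a run of letters and not a measured binding site.

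The cytosolic members of the chromosome 3 cluster covered a wide range of levels. Car13 was the most abundant member without IL-4, at FPKM values of 13.75, 13.56 and 14.57 in the controls against 12.62, 13.16 and 13.02 with IL-4. Its normalized counts were 834, 829 and 875 in the controls against 871, 908 and 873 with IL-4, so the groups overlapped on that scale. The log2 fold change was 0.06 (95% interval -0.08 to 0.20) and turned to -0.11 when libraries were scaled by their totals and to -0.10 on log2(FPKM + 1), so its direction depended on the scaling. Car1 had no row in these libraries.

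Car2, by contrast with its neighbour Car13, was near the detection limit, with 10, 8 and 5 counts in the controls against 6, 14 and 12 with IL-4. The groups overlapped, and the log2 fold change of 0.62 had a 95% interval from -0.35 to 1.59. Car3 had 1, 0 and 0 counts in the controls against 4, 3 and 1 with IL-4, which was too few to enter the test. For so few reads no fold change is given.

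Car5b, the mitochondrial enzyme (chromosome X, 163976822 to 164028010), was higher in every IL-4 library than in any control library. Its normalized counts were 203, 185 and 203 in the controls against 292, 255 and 286 with IL-4. The log2 fold change was 0.49 with a standard error of 0.10, and 0.45 to 0.56 with each library left out. It was 0.32 when libraries were scaled by their totals. Some of its expected counts were not whole (214.02 in control replicate 1), and reads split between sequences leave such values.

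The outward-facing transmembrane members were low in both groups. Car9 (chromosome 4, 43507026 to 43513729) had 63, 35 and 73 counts in the controls against 49, 40 and 58 with IL-4, and the groups overlapped. Its log2 fold change was -0.06 with a 95% interval from -0.69 to 0.57, and it changed sign without control replicate 1 (0.02), control replicate 3 (0.14) or IL-4 replicate 5 (0.07). Car12 (chromosome 9, 66712296 to 66766845) had 22, 15 and 22 counts in the controls against 13, 11 and 4 with IL-4. The Car12 groups did not overlap, and their closest libraries had 15 and 13 counts. Its log2 fold change of -0.91 had a 95% interval from -1.83 to 0.01 and was -0.53 without IL-4 replicate 6.

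Of the 7 members, 6 had enough counts to be tested, and 1 of them, Car4, was called, beside a background of 11.0% of all genes tested. Of the 6, 3 had groups that did not overlap in normalized counts (Car4 and Car5b higher, Car12 lower), beside 50.4% of all genes tested. Because the members were selected on this contrast, nothing is read from these shares.

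**Figure D2:**
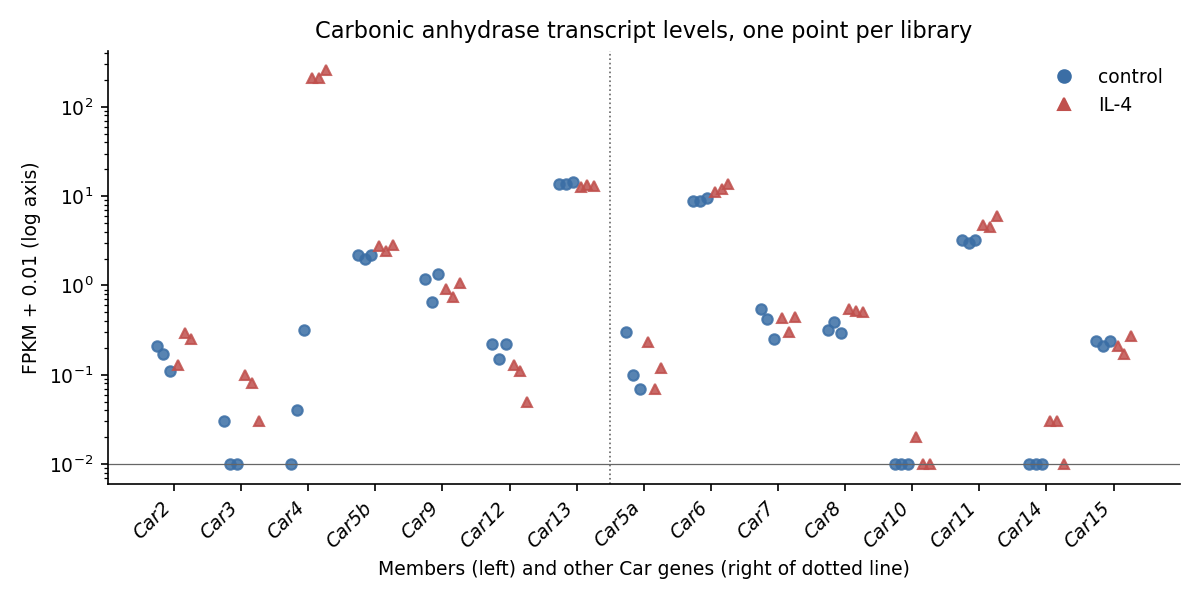
FPKM of the members and of the other Car genes with a row, 1 point per library, with 0.01 added on a log axis so that libraries without a read lie on the grey line. Car4 moves from at most 0.31 in the controls (circles) to 207.68 or more with IL-4 (triangles), while Car13 stays between 12.62 and 14.57.

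The order of the levels per transcript length changed at its top. In the controls the mean FPKM was 14.0 for Car13, 2.13 for Car5b, 1.06 for Car9, 0.187 for Car12, 0.153 for Car2, 0.113 for Car4 and 0.00667 for Car3. The ranges of Car13, Car5b and Car9 were apart from those of their neighbours, whereas those of Car12, Car2 and Car4 overlapped. With IL-4 the order was Car4 (224), Car13 (12.9), Car5b (2.67), Car9 (0.893), Car2 (0.213), Car12 (0.0867) and Car3 (0.0600). Summed over the 7 members, the level was 16.5 to 18.8 FPKM in the controls and 224 to 273 FPKM with IL-4. Car13 gave 77.7% to 82.0% of the sum in the controls, and Car4 gave 92.6% to 93.7% of it with IL-4.

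The rest of the family was read from a list of 9 other Car genes and the receptor phosphatases Ptprg and Ptprz1, whose outer parts hold a carbonic anhydrase-like domain. Of these 11 genes, 10 had a row and 6 were tested. At an adjusted p under 0.05 with any fold change, 3 were higher and 1 was lower, while 19.0% of all genes tested were higher and 18.4% lower by that rule. Only Ptprz1 among them also passed a log2 fold change of 1. The median log2 fold change of the 6 was 0.38, beside 0.00 over all genes.

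Car6, the secreted enzyme of saliva, was the most abundant of these Car genes. It had 333, 334 and 356 counts in the controls against 423, 460 and 516 with IL-4, and every IL-4 library was higher. Its log2 fold change was 0.60 ± 0.09 (SE; edgeR, adjusted p = 0.000856). With IL-4 its FPKM range overlapped that of Car13, which it did not in the controls.

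Car8 and Car11, family proteins without enzyme activity, also rose in every IL-4 library. Car11 had 127, 117 and 126 counts in the controls against 191, 181 and 241 with IL-4 (log2 fold change 0.88 ± 0.12, SE; edgeR, adjusted p = 0.000861). Car8 had 50, 62 and 45 counts in the controls against 89, 83 and 83 with IL-4 (log2 fold change 0.85 ± 0.16, SE; edgeR, adjusted p = 0.00417). The low or tissue-restricted members did not separate. Car7 (13 to 28 counts in the controls, 16 to 23 with IL-4) had a log2 fold change of 0.13 that turned to -0.04 under library totals, to -0.01 on both FPKM scales and to -0.13 without control replicate 3. Car5a, Car15, Car10 and Car14 were under the test's minimum, with at most 9.86, 8, 1 and 1.03 counts in a library.

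Ptprz1, a receptor phosphatase of glia and precursor cells, fell. Its counts were 627, 670 and 540 in the controls against 171, 198 and 151 with IL-4 (log2 fold change -1.67 ± 0.14, SE; edgeR, adjusted p = 4.06e-05). The related Ptprg had a log2 fold change of 0.15 (edgeR, adjusted p = 0.47), which was -0.02 under library totals and on both FPKM scales. Without IL-4 replicate 6 Ptprg was 0.30 with an adjusted p of 0.0403 in edgeR.

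**Figure D3:**
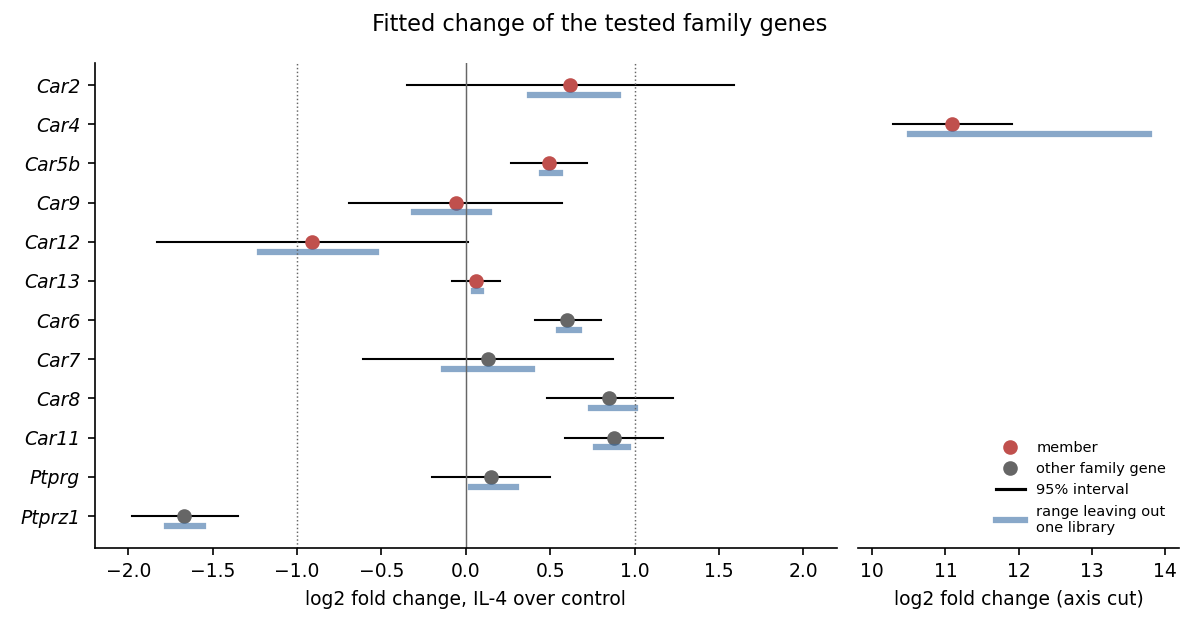
Fitted log2 fold change (IL-4 over control) of the tested family genes with its 95% interval (black) and the range with each library left out (blue), where the horizontal axis is cut between 2.2 and 9.8. Car4 lies at 11.09 with a range up to 13.79, the other members lie between -0.91 and 0.62, and dotted lines mark 1 and -1.

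The partners of these enzymes were read from 5 lists: bicarbonate transporters, proton and lactate exporters, subunits of the vacuolar proton pump (V-ATPase), enzymes that use bicarbonate, and hypoxia-inducible genes. Together they hold 84 genes, of which 79 had a row and 64 were tested. Of the 64, 11 were called higher and 2 lower, beside 5.77% and 5.26% of all genes tested. At any fold change 32 were higher and 6 lower at an adjusted p under 0.05, beside 19.0% and 18.4% of all genes. These counts and the list medians below were read under TMM scaling. Library totals, which moved the median of all genes to -0.17, made rises smaller and falls larger. Pcca, for example, went from 0.44 to 0.27 and Slc4a7 from -0.49 to -0.67. Under library totals 9 genes of these lists were called higher and 2 lower, and the counts at any fold change were not repeated.

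Among bicarbonate transporters 7 of 15 genes were tested, 4 were higher and 1 was lower at any fold change, and the list median was 0.31 on the log2 scale. Slc4a4, an electrogenic sodium bicarbonate cotransporter, had 493, 441 and 357 counts in the controls against 1453, 1455 and 1108 with IL-4, with no overlap (log2 fold change 1.79 ± 0.16, SE; edgeR, adjusted p = 6.51e-05). Slc26a6, a chloride bicarbonate exchanger, rose by 0.55 on the log2 scale (edgeR, adjusted p = 0.00651). Slc4a11 had a log2 fold change of 0.53 and an adjusted p of 0.0492 in edgeR, but passed in only 1 of 12 alternatives. It was 0.36 under library totals (edgeR, adjusted p = 0.151), 0.13 and 0.29 on the FPKM scales (limma, adjusted p = 0.14 and 0.154), and its adjusted p was 0.0889 in DESeq2 and 0.0717 to 0.14 without control replicate 1, 2 or 3 or IL-4 replicate 4 or 6. Slc4a7, an electroneutral sodium bicarbonate cotransporter, fell by 0.49 (edgeR, adjusted p = 0.0208), but its adjusted p was 0.0674 without control replicate 1 and 0.0792 without control replicate 2.

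Among proton and lactate exporters 13 of 18 genes were tested, 7 were higher and 3 were lower, and the median was 0.24. Emb and Bsg are the chaperones that bring monocarboxylate transporters to the membrane. Emb had 5447, 5275 and 5760 counts in the controls against 18074, 17776 and 19497 with IL-4 (log2 fold change 1.90 ± 0.06, SE; edgeR, adjusted p = 3.01e-07). Bsg rose by 0.85 on the log2 scale (edgeR, adjusted p = 0.000289), and the endosomal sodium proton exchanger Slc9a9 by 0.67 (edgeR, adjusted p = 0.000256).

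In the same list the sodium proton exchanger Slc9a5 fell, from 299, 253 and 254 counts to 113, 108 and 99 (log2 fold change -1.18 ± 0.12, SE; edgeR, adjusted p = 0.000134). The voltage-gated proton channel Hvcn1 had a log2 fold change of -0.22 (edgeR, adjusted p = 0.0304), and its adjusted p was 0.0855 to 0.132 without control replicate 1 or 3 or IL-4 replicate 4 or 5. The called genes of this list also include Slc9a4 (1.86) and Slc9a7 (-2.53), which had fewer than 50 normalized counts on average and are named to complete the count.

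Among V-ATPase subunits 20 of 25 were tested, 7 were higher and 1 was lower, and the median was 0.19. Atp6v0d2, a subunit known from osteoclasts and fused macrophages, had 461, 391 and 451 counts in the controls against 4580, 4700 and 5592 with IL-4, with no overlap (log2 fold change 3.67 ± 0.10, SE; edgeR, adjusted p = 1.47e-07). Atp6v0e2 rose by 1.55 (edgeR, adjusted p = 3.9e-06) and Atp6v0a1 by 1.03 (edgeR, adjusted p = 3.39e-06). Atp6v0a2 had a log2 fold change of -0.29 (edgeR, adjusted p = 0.0133), with an adjusted p of 0.0632 without control replicate 1 and 0.0611 without control replicate 2.

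Among enzymes that use bicarbonate 8 of 10 were tested, 3 were higher and none was lower, and the median was 0.18. The increase was largest for Pcx, the mitochondrial pyruvate carboxylase, with 507, 516 and 496 counts in the controls against 1481, 1430 and 1254 with IL-4 (log2 fold change 1.61 ± 0.09, SE; edgeR, adjusted p = 5.12e-06). Pcca, a subunit of propionyl-CoA carboxylase, rose by 0.44 (edgeR, adjusted p = 0.00213). Mccc1 had a log2 fold change of 0.22 and an adjusted p of 0.0408 in edgeR, but passed in only 1 of 12 alternatives. It was 0.05 under library totals (edgeR, adjusted p = 0.602), 0.04 and 0.05 on the FPKM scales (limma, adjusted p = 0.594 and 0.591), and its adjusted p was 0.078 in DESeq2 and 0.0741 to 0.127 without control replicate 1, 2 or 3 or IL-4 replicate 4 or 5.

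Among the 16 hypoxia-inducible genes, all tested, 11 were higher and 1 was lower, and the median was 0.52. The increases were led by Ankrd37 (143, 116 and 174 counts against 353, 402 and 594, log2 fold change 1.79 ± 0.21, SE; edgeR, adjusted p = 0.000324). The prolyl hydroxylase Egln3 rose by 1.57 (edgeR, adjusted p = 1.42e-06) and the oxidoreductase Ero1l by 1.19 (edgeR, adjusted p = 1.96e-06). Ndrg1 fell by 0.33 (edgeR, adjusted p = 0.00299). Car9 and Car12, which belong to the hypoxia response but were not put on this list, were at -0.06 and -0.91 in the same libraries.

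**Figure D4:**
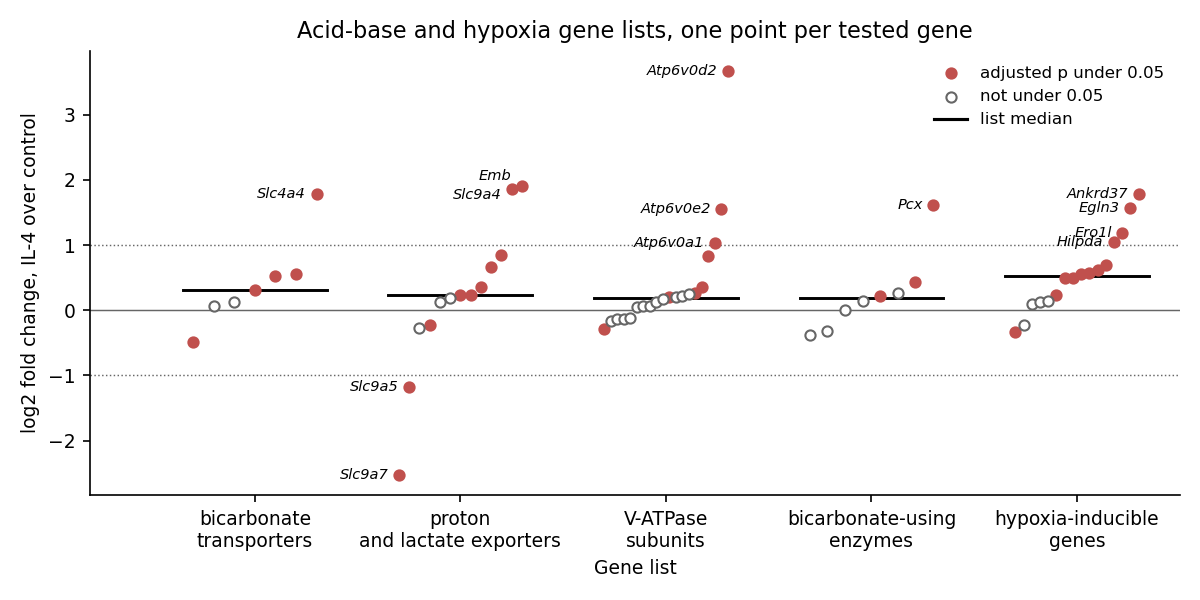
Log2 fold change (IL-4 over control) of each tested gene in the 5 lists, filled where edgeR's adjusted p was under 0.05, with list medians as black bars and dotted lines at 1 and -1. Atp6v0d2 is the highest point at 3.67, and the list medians lie between 0.18 and 0.52.

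The cell types that could carry Car4 were read from marker lists in the same libraries. The 11 AP markers had a summed level of 4182 to 4498 FPKM in the controls and 4719 to 5023 FPKM with IL-4, most of it from Col1a1, a fibrillar collagen chain of fibroblasts in general, with means of 3307 and 3690 FPKM. Several of the others were low without IL-4, with control means of 0.307 FPKM for Dpp4, 0.787 for Pi16, 1.55 for Dlk1 and 3.37 for Cd34. The rest were higher, with control means of 23.6 FPKM for Lum, 55.3 for Pdgfra, 120 for Ly6a, 190 for Pdgfrb, 245 for Dcn and 366 for Thy1. All 11 were tested, 6 were higher and 3 lower at any fold change, and the median was 0.47. The 3 called genes, all higher, were Pi16 (log2 fold change 4.02), Cd34 (3.35) and Ly6a (1.20), the gene of SCA-1, while Pdgfrb, a receptor of perivascular precursors, fell by 0.66 on the log2 scale (edgeR, adjusted p = 0.000989). Col1a1 had a log2 fold change of 0.33 (edgeR, adjusted p = 0.0168), a call lost in 6 of 12 alternatives. Its adjusted p was 0.0637 to 0.0662 without control replicate 2 or 3 or IL-4 replicate 5, and its log2 fold change was 0.16 under library totals (edgeR, adjusted p = 0.147) and on both FPKM scales (limma, adjusted p = 0.426 and 0.403). Despite the removal of CD45+ cells, all 15 macrophage markers were tested, with a summed level of 4335 to 5708 FPKM in the controls and 1666 to 2300 FPKM with IL-4. Of the 15, 14 were lower at any fold change and none was higher, with a median log2 fold change of -0.99. The changes were uneven, from -8.65 for Cx3cr1, -4.43 for Aif1 and -2.59 for Cd14 to -0.27 for Itgam, -0.24 for Adgre1 and 0.38 for Cd68. Lyz2, the macrophage lysozyme, made up much of the sum, with means of 2739 FPKM in the controls and 776 FPKM with IL-4. It had 71118.6, 69676.1 and 91409.7 counts in the controls against 19223.9, 20606.3 and 27001.4 with IL-4 (log2 fold change -1.64; edgeR, adjusted p = 5.9e-05).

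In the 10-gene list of macrophage genes after IL-4, 8 were tested and all 8 were higher at any fold change (median log2 fold change 9.52). The summed level of the list was 84.2, 102 and 109 FPKM in control replicates 1, 2 and 3 and 3654, 3867 and 4889 FPKM in IL-4 replicates 4, 5 and 6. Most of the control level came from Mrc1, with 81.18, 98.99 and 99.99 FPKM. Mrc1 rose by only 0.82 on the log2 scale and was not called. Chil3, the most abundant of them, had 4, 9 and 77 counts in the controls against 58292.5, 64611.9 and 75844.4 with IL-4 (log2 fold change 11.26, and 13.43 without control replicate 3; edgeR, adjusted p = 5.22e-06). IL-4 replicate 6 and control replicate 3 were the highest of their groups for Car4 and for the summed levels of this list and of the macrophage markers. The same libraries were highest for the summed levels of V-ATPase subunits (1894 and 1674 FPKM), proton and lactate exporters (1104 and 628 FPKM) and hypoxia-inducible genes (1869 and 1632 FPKM). They were also highest for osteoclast and giant cell genes (499 and 141 FPKM) and mature adipocyte genes (603 and 221 FPKM). Other lists had a different order. AP markers were highest in IL-4 replicate 4 (5023 FPKM) and control replicate 1 (4498 FPKM), as were bicarbonate transporters (59.2 and 52.9 FPKM). Enzymes that use bicarbonate, endothelial markers, erythroid genes and skeletal muscle genes also did not have both of these libraries highest. The part of macrophages in the Car4 values was not tested. In bulk RNA fewer cells of a type, less RNA per cell and changes of single genes cannot be told apart.

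Genes of osteoclasts and giant cells moved in both directions. Of 9 listed, 7 were tested, and at any fold change 4 were higher, all of them called, and 1 was lower (median 1.91). The lower gene was Nfatc1, the transcription factor of osteoclast formation (log2 fold change -0.83; edgeR, adjusted p = 0.000111), and Mmp9 (0.09) and Oscar (-0.48) did not pass the test. Ctsk, the collagen-degrading cathepsin, had 5180, 4793 and 5246 counts in the controls against 15759, 16033 and 19593 with IL-4 (log2 fold change 1.91; edgeR, adjusted p = 1.55e-06). Their summed level was 132 to 141 FPKM in the controls and 414 to 499 FPKM with IL-4. Car2, which works with the proton pump in osteoclasts, had at most 14 counts in those libraries.

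Endothelial markers had a summed level of 14.8 to 15.5 FPKM in the controls and 15.3 to 17.5 FPKM with IL-4, and their part in the Car4 values was not tested. All 9 were tested, 1 was called higher and 4 lower, and the list median was -0.41. The called increase was that of Vwf, the von Willebrand factor, from 221, 213 and 168 counts to 1634, 1641 and 1283 (log2 fold change 3.08; edgeR, adjusted p = 2.7e-06), whereas the endothelial cadherin Cdh5 had 385, 379 and 377 counts in the controls against 115, 130 and 93 with IL-4.

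Of the mature adipocyte genes, those that mark filled or thermogenic fat cells were at or near 0. Adipoq had 0, 0 and 3 counts in the controls against 13, 9 and 10 with IL-4, too few to enter the test. Plin1 had at most 2 counts in a library and Ucp1 at most 1, beside the low counts of Car3. Others were well above 0. Fabp4, a fatty acid carrier that macrophages also make, had 539, 545 and 639 counts in the controls against 910, 1094 and 1320 with IL-4 (log2 fold change 1.10; edgeR, adjusted p = 0.000302), and the lipases Pnpla2 and Lipe had mean levels of 14.7 and 2.97 FPKM in the controls against 15.9 and 2.17 FPKM with IL-4. Lpl, a lipase that macrophages and precursors also express, was the most abundant gene of that 13-gene list and rose by 1.72 on the log2 scale (edgeR, adjusted p = 8.06e-07). Of the list 4 were tested, 3 were higher and 1 was lower at any fold change, and the 2 called genes were Lpl and Fabp4. Fabp4 stayed under a log2 fold change of 1 in 4 of 12 alternatives, at 0.93 under library totals, 0.89 at the lowest and 0.98 without IL-4 replicate 6. Erythroid genes summed to 2.58 to 5.11 FPKM, with Hbb-bs, a beta globin, at 32 counts or fewer, and skeletal muscle genes to 2.25 to 5.47 FPKM, with Acta1, the muscle actin, at 113 to 150 counts in the controls and 21 to 31 with IL-4. Of 4 erythroid and 2 muscle genes tested, 1 in each list was called lower and none higher.

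**Figure D5:**
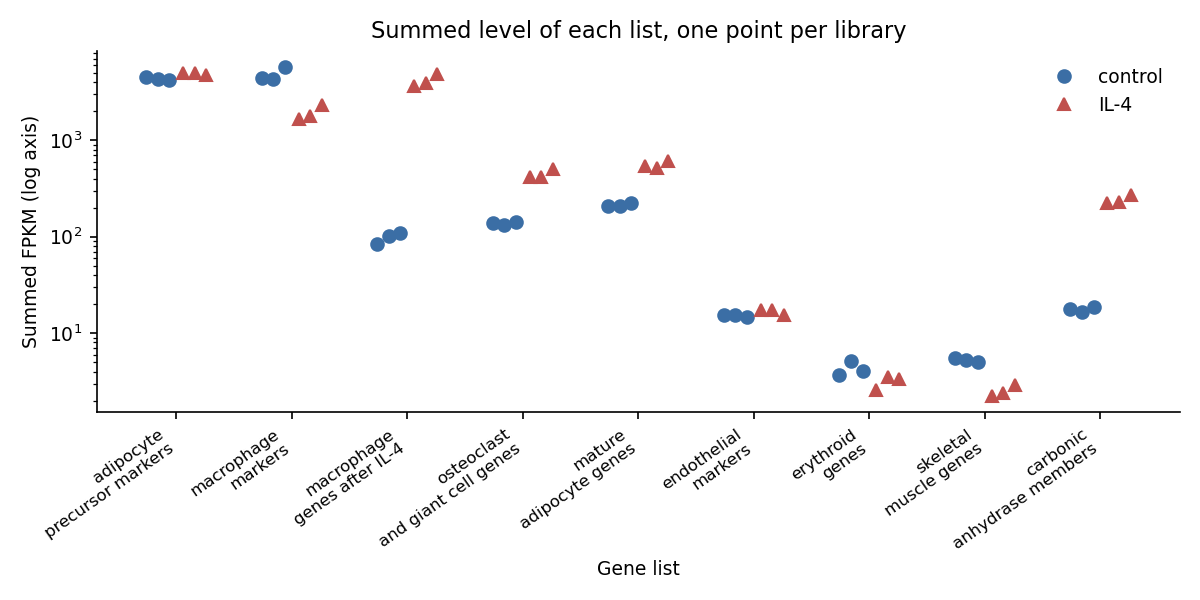
Summed FPKM of each cell type list and of the 7 carbonic anhydrases in every library, on a log axis. Macrophage genes after IL-4 go from 109 or less, mostly Mrc1, to 3654 or more, and the carbonic anhydrases from 18.8 or less to 224 or more. The sum of endothelial markers lies between 14.8 and 17.5, although 1 of them was called higher and 4 lower.

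For each member with at least 100 normalized counts on average, the 3 genes with the most similar profile were taken as those with the smallest root mean square difference of log2(normalized count + 1), centred per gene, over the 6 libraries. For Car4 they were Chil3 (0.336), Retnla (0.377) and Chil4 (0.440), and each of them was above the other controls in control replicate 3. Profiles were not scaled, so for Car4 the measure picks genes with a similarly large difference. Control replicate 3 was the highest control at all 15 genes of the set above, so that feature does not single out these 3. Retnla had 2, 2 and 18 counts in the controls against 10118, 10274 and 15331 with IL-4, and Chil4 had 0, 1 and 21 against 14126.5, 13092.1 and 19734.6. The IL-4 counts of Chil3 and Chil4, which are close paralogs, were not whole, so how reads were split between related sequences bears on both. For Car5b the most similar were Abhd17b (0.0457), Klf15 (0.0497) and P3h3 (0.0498), with log2 fold changes of 0.48, 0.53 and 0.46. For Car13 they were 2700081O15Rik (0.0185), Slc25a46 (0.0193) and Anapc5 (0.0203), with log2 fold changes of 0.05, 0.09 and 0.08.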

How the data were processed

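Polyadenylated RNA of 3 control and 3 IL-4 cultures was sequenced on a BGISEQ-500. The authors filtered the reads with SOAPnuke, aligned them to mm10 with HISAT, and obtained gene levels with Bowtie2 and RSEM. The deposited mRNA-seq files hold expected counts and FPKM values per gene, as the authors computed them. A gene missing from a library was set to 0. A single row that names no gene, with 0.00016% of all counts, was left out. Of the positive expected counts 87% were whole, and all were rounded for testing.

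Counts were filtered with filterByExpr, scaled by TMM and fitted with edgeR 4.0.16 (quasi-likelihood, R 4.3.3, group as the only term), with p-values adjusted across the tested genes by Benjamini-Hochberg. A call needed a log2 fold change beyond 1 and an adjusted p below 0.05. Alternatives used DESeq2 1.42.0, upper-quartile scaling, library totals, all genes without a filter, FPKM values with a pseudocount of 1 or 0.1 on the log2 scale in limma 3.58.1, and each library left out. The scripts were tested on simulated data. Each edgeR standard error was taken as the absolute log2 fold change divided by the square root of the test's F statistic. It therefore restates the test and is no separate estimate of spread, and the 95% intervals come from it. For the members these values are a description only. The floor of 3 counts covers counting error only.

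The members and gene lists were chosen with earlier results of these data known. Named were all members, the family genes with a row, up to 3 rises and 3 falls per acid-base list with at least 50 normalized counts, the most abundant gene of each cell type list with markers near 0, and the most similar profiles. Cdh5, Fabp4, Pnpla2, Lipe, Nfatc1, Mmp9, Oscar, Pi16, Cd34, Ly6a, Dlk1, Dpp4, Pdgfrb, Mrc1, Msx3 and Col6a5 were added after their values were seen. Promoters came from RefSeq (GRCm38.p6, 4 of 7 members matched by symbol). Protein sequences and the small RNA files were not used here.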

Additional observations from a re-analysis of the deposited data

How the results depend on the processing

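The count of called members (1 higher, 0 lower) was identical under all 12 alternatives. The members were selected with these values known, and Car4 lay far beyond the threshold under each setting, so nothing is read from this. On log2(FPKM + 1), which compresses low levels, the acid-base lists had 7 called higher and 0 lower, against 11 and 2, and all genes had 348 higher and 352 lower, against 809 and 737. With each library left out the acid-base lists gave 9 to 11 higher and 2 to 3 lower, the cell type lists 16 to 17 higher and 10 to 13 lower, and all genes 812 to 835 higher and 699 to 738 lower. Car4 was at 7.67 on log2(FPKM + 1) and 10.32 on log2(FPKM + 0.1). Car7 turned to -0.04 under library totals and to -0.01 on both FPKM scales, and ranged from -0.13 to 0.39 with each library left out. Ptprg turned to -0.02 under library totals and on both FPKM scales. No paired analysis was possible because the control libraries are numbered 1 to 3 and the IL-4 libraries 4 to 6, so that no number is shared. Depth limits the members with few reads: a change of Car2 anywhere from -0.35 to 1.59 on the log2 scale could not be told apart from its measured value.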
